A study of Mus musculus with 24 samples.

Results

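The genotype difference was examined in circulating memory B cells (csMBC in the labels), in 8 of the 24 RNA-sequencing libraries: 4 labelled SCAP cKO circulating and 4 labelled WT circulating. The libraries were taken by their titles. SCAP cKO mice carried SCAP fl/fl with hCD20-TamCre, and WT mice carried SCAP +/+ with the same hCD20-TamCre, so the Cre was present in both groups. All mice were sensitised intranasally with house dust mite and rechallenged 6 weeks later. In SCAP cKO mice SCAP was deleted before this second exposure. The other 16 libraries came from lung CCR6+CD69+ and lung CCR6-CD69- memory B cells of both genotypes and enter only where a population difference is given. All 24 libraries, also those of circulating cells, have lung B cells as their labelled source. Whether each replicate is a different mouse is not stated, so p-values reflect library-to-library spread, which may be technical.

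SCAP is a sterol-sensing escort protein of the endoplasmic reticulum. When membrane sterol is low it carries the SREBP transcription factors to the Golgi, where they are cleaved and released to switch on genes of cholesterol and fatty acid synthesis. INSIG proteins hold SCAP and SREBP back when sterol is high. In hCD20-TamCre mice a tamoxifen-activated Cre is driven by the human CD20 promoter, which is active in B cells, so cells of other lineages in a sort would keep an intact SCAP gene. A floxed exon removed from a gene can leave the remaining exons transcribed.

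Total counts ran from 957610 to 2092658 in the SCAP cKO libraries and from 356782 to 2466421 in the WT libraries, where replicate 2 was the smallest. Between 4610 and 7111 genes were detected in SCAP cKO libraries and between 4535 and 7009 in WT libraries. The 3 counts taken as the detection limit corresponded to 1.43 to 3.13 CPM (counts scaled to the same library total) in SCAP cKO libraries and 1.22 to 8.41 CPM in WT libraries, and such limits cover counting error only. Of the 6779 genes tested, 3.66% to 34.2% had no count in a SCAP cKO library and 4.26% to 36.6% in a WT library. Replicates 1 and 2 of each group were labelled batch 1 and replicates 3 and 4 batch 2. Log2 CPM correlated across genes at 0.579 to 0.712 among SCAP cKO libraries, 0.55 to 0.711 among WT libraries and 0.520 to 0.705 between the genotypes, so libraries of a genotype were about as unlike each other as libraries of different genotypes. These ranges mix pairs within and between batches and include the small WT replicate 2. Within batch 1 SCAP cKO replicates 1 and 2 correlated at 0.712 with each other, and at 0.705 and 0.699 with WT replicate 1. Within batch 2 the SCAP cKO pair was at 0.580, the WT pair at 0.711 and pairs of different genotypes at 0.619 to 0.665. All these correlations run over genes, which do not vary independently. The scaling factors (trimmed mean of M values, TMM) were 0.596 and 0.647 in SCAP cKO replicates 1 and 2, and 0.735 to 1.27 in the other 6 libraries. Library values below are plain CPM and fold changes are TMM-scaled, so the pair can differ in sign.

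The sort was checked against cell type markers first. B cell transcripts were present in all 8 libraries. Ms4a1, which encodes CD20 itself, was at 531, 764, 524 and 615 CPM in SCAP cKO libraries, against 478, 387, 899 and 463 CPM in WT libraries. The genotypes overlapped. The B cell identity list took 0.431% to 0.785% of counts in SCAP cKO libraries and 0.392% to 0.713% in WT libraries.

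Natural killer cell genes were also present in both genotypes. The natural killer list took 0.332% to 0.666% of counts in SCAP cKO libraries and 0.209% to 0.494% in WT libraries, against at most 0.146% in any of the 16 lung libraries. Eomes, a transcription factor of natural killer cells, was at 13.7, 360, 535 and 902 CPM in SCAP cKO libraries, against 235, 642, 360 and 845 CPM in WT libraries. Nkg7, a cytotoxic granule protein, was at 850, 1354, 464 and 601 CPM in SCAP cKO libraries, against 429, 846, 281 and 793 CPM in WT libraries. The groups overlapped for both genes, and 12 of the 17 tested genes of the list had a higher fitted level in SCAP cKO, with 0 at an unadjusted p under 0.05. T cell markers took 0.103% to 0.292% of counts in SCAP cKO libraries and 0.128% to 0.167% in WT libraries, with 6 of 12 tested genes higher. Macrophage and monocyte markers took 0.119% to 0.657% in SCAP cKO libraries and 0.315% to 0.520% in WT libraries, with 10 of 18 higher. Conventional dendritic cell markers took 0.126% to 0.177% in SCAP cKO libraries and 0.0468% to 0.127% in WT libraries. Of 9 tested, 6 were higher and 3 lower, with log2 fold changes from -2.07 to 5.24. At an unadjusted p under 0.05 in edgeR 2 were higher, beside 5.84% of all genes. The median log2 fold change was 1.11 (1.48 in batch 1, 0.17 in batch 2). Ccl22, a chemokine of activated dendritic cells and B cells, was at 7.12, 139, 0 and 338 CPM in SCAP cKO libraries, against 3.09, 0, 0 and 10.4 CPM in WT libraries. SCAP cKO replicates 2 and 4 held nearly all of it, and the log2 fold change was 5.24 ± 1.65 (adjusted p = 0.417 in edgeR, 0.0118 in DESeq2). Zbtb46, a transcription factor of conventional dendritic cells, was at 0 to 47.9 CPM in SCAP cKO libraries and 0 to 0.884 CPM in WT libraries. Plasmacytoid dendritic cell markers took 0.406% to 0.608% in SCAP cKO libraries and 0.363% to 0.499% in WT libraries. In bulk RNA fewer cells of a type and less RNA per cell cannot be told apart, and the part of these cells in the genotype differences was not tested.

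**Figure D1:**
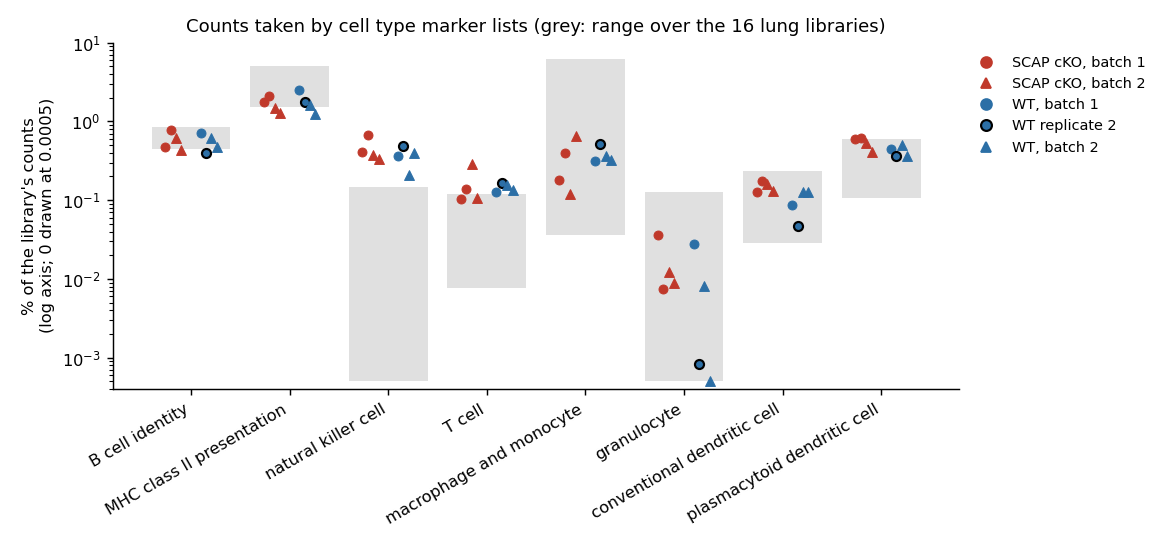
Percentage of each library's counts (log axis) taken by all measured genes of 8 marker lists, SCAP cKO left of WT; circles are batch 1, triangles batch 2, a black rim marks WT replicate 2 and grey spans the 16 lung libraries. Natural killer genes took 0.332% to 0.666% of counts in SCAP cKO and 0.209% to 0.494% in WT circulating libraries, above every lung library.

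Counts of Scap, the targeted gene, were no lower in libraries labelled SCAP cKO than in WT ones. Scap was at 121, 190, 446 and 136 CPM in SCAP cKO libraries, against 85.3, 0, 128 and 203 CPM in WT libraries. Replicate 3 of SCAP cKO was the highest, the 0 was the small WT replicate 2, and the groups overlapped. The fitted log2 fold change was 1.26 ± 0.95 (SE), with an adjusted p of 0.673 in edgeR, and 0.81 without WT replicate 2. In lung CCR6+CD69+ cells Scap had a median of 74.5 CPM (43.5 to 138) in SCAP cKO libraries and 73.2 CPM (66.2 to 134) in WT libraries. In lung CCR6-CD69- cells it had a median of 110 CPM (0 to 139) in SCAP cKO libraries and 156 CPM (115 to 170) in WT libraries. The counts cover the whole gene, so they do not check whether the floxed part was lost, and the genotype rests on the labels.

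No gene passed the adjusted p threshold of 0.05 between SCAP cKO and WT circulating cells in edgeR's quasi-likelihood test: 0 of 6779 genes tested (0%), the smallest adjusted p being 0.417. At an unadjusted p under 0.05 there were 693 genes (10.2%), of which 396 were higher (5.84%) and 297 lower (4.38%) in SCAP cKO. These shares rest on a spread shared with the lung libraries. With only the 8 circulating libraries in the edgeR fit, 187 of 5060 genes (3.7%) had an unadjusted p under 0.05. With WT replicate 2 left out as well, 201 of 5438 genes (3.7%) did. DESeq2 called 226 genes on the same counts, 105 higher and 121 lower, and limma voom with sample weights called 0, with 342 at an unadjusted p under 0.05. Of the 226, 10 had no count in any library of the lower group 38 drew over 80% of the higher group's CPM from 1 library, and 79 had every library of the higher group above every library of the other. The biological coefficient of variation estimated over the 6 groups was 1.10. Every SCAP cKO library was above every WT library in plain CPM for 48 genes (0.708%) and below for 115 genes (1.7%), together 2.4%; on TMM-scaled CPM these were 68 (1%) and 79 (1.17%). Without WT replicate 2 they were 71 (1.05%) and 273 (4.03%). A fitted log2 fold change above 0 was found for 55.4% of genes and below 0 for 44.6%. The median over all genes was 0.16, and it was 0.06 with relative log expression factors and -0.12 with library totals alone, where 46% of genes were above 0. The genes below are given with edgeR's adjusted p, which none passed. DESeq2 called 35 of the 157 tested genes that the naming rule picked, with Chpf, Stx5a, Shb, Sgcb, Nrp2, Enpp5, Susd1, Bcl2a1b, Tstd3, Hacd3, 4930453N24Rik, Cd151, Churc1, Rpl29, Trim5, Tcf3, A930015D03Rik, Ppard, Cyb5r1, Hint2, Gm3055, Sc5d, Ccl22, Psma6, Traf1, Nfkbie, Ptpre and Eif1 among them. Over all 6779 genes tested DESeq2 called 226. The rule picked most of its genes by small p in this same contrast, so their calls on the same counts are no separate evidence. DESeq2's adjusted p was 3.7e-05 for Stx5a, 0.00385 for Tcf3, 0.022 for Sc5d and 0.0299 for Nfkbie.

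The first question of the comparison is the sterol programme that SCAP serves. Sterol synthesis genes lay on both sides of 0. Of 21 genes on the cholesterol synthesis list, 13 had enough counts to be tested; 7 had a higher and 6 a lower fitted level in SCAP cKO circulating cells, with a median log2 fold change of 0.31 beside 0.16 over all genes. Of these 1 was higher and 2 were lower at an unadjusted p under 0.05, against 5.84% and 4.38% of all genes. In batch 1 alone the median was -0.63 and in batch 2 alone 0.00, and in SCAP cKO against WT lung cells it was -0.50 in CCR6+CD69+ and -0.60 in CCR6-CD69- cells. Rows for Srebf1 and Srebf2 were not analysed here.

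The genes for HMG-CoA synthase and INSIG1 are textbook SREBP targets, and their promoters are shown beside the values. These are the 250 bases before the annotated start in RefSeq GRCm38.p6, Hmgcs1 at chr13:119690101-119690350 and Insig1 at chr5:28071162-28071411, both on the plus strand. Capitals mark the sterol regulatory element core (TCACCCCAC), a sequence that SREBP reads, in Hmgcs1 and the E-box (CACGTG) in Insig1. The Insig1 window held no match to that core.
Hmgcs1: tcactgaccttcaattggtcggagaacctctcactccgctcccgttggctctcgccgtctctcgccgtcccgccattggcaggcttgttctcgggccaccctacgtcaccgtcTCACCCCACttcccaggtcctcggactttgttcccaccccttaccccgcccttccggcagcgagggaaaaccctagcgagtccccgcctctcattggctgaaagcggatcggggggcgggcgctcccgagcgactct
Insig1: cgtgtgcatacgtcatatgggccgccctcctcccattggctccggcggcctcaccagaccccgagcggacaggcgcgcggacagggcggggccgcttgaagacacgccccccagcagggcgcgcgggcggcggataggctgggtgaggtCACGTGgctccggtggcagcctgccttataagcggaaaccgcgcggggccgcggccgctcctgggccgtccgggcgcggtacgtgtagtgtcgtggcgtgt
The core lay 137 bases before the start of Hmgcs1 and the E-box 101 bases before the start of Insig1. Searched on both strands, TCACCCCAC was in 0.496% of 32851 promoter windows of this length, CACGTG in 6.02% and the CCAAT box, CCAAT, in 33.8%. Of the 38 tested genes on the cholesterol synthesis, SREBP control and fatty acid synthesis lists, 30 had a window; 1 held TCACCCCAC, 5 held CACGTG and 23 held CCAAT. Such a match is a description of letters only.

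Hmgcs1, an early enzyme of the mevalonate pathway, was at 50.4, 281, 464 and 328 CPM in SCAP cKO libraries, against 110, 0, 213 and 193 CPM in WT libraries. SCAP cKO replicates 2 to 4 were above every WT library and replicate 1 was below 3 of them. The log2 fold change was 1.29 ± 0.90 (adjusted p = 0.646 in edgeR). Pmvk, phosphomevalonate kinase, was at 438, 402, 367 and 116 CPM in SCAP cKO libraries, against 255, 165, 23.9 and 29.4 CPM in WT libraries. Here 3 of 4 SCAP cKO libraries were above every WT library, and the log2 fold change was 1.94 ± 0.89 (adjusted p = 0.441). Mvd, the next enzyme of the pathway, was at 7.12, 2.09, 0 and 0 CPM in SCAP cKO libraries, against 123, 2.80, 1.62 and 26.8 CPM in WT libraries. Most of the WT counts were in replicates 1 and 4, and the log2 fold change was -4.11 ± 1.79 (adjusted p = 0.431).

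Sc5d, a desaturase of the late, post-lanosterol steps, was the 1 of 13 tested sterol synthesis genes whose groups did not overlap in plain CPM. Over all genes 2.4% were apart in either direction, and 1 gene is too few to set against that share. Sc5d was at 9.86, 18.8, 43.5 and 11.9 CPM in SCAP cKO libraries, against 134, 320, 105 and 80.9 CPM in WT libraries. All 4 SCAP cKO libraries were below all 4 WT libraries, also after TMM scaling and without WT replicate 2. The log2 fold change was -2.71 ± 1.11 (adjusted p = 0.419), with -3.62 in batch 1 and -1.77 in batch 2. The fold change of Sc5d in lung cells was -0.50 in CCR6+CD69+ and 0.09 in CCR6-CD69-. Lbr, the lamin B receptor with sterol reductase activity, was at 119, 74.1, 215 and 137 CPM in SCAP cKO libraries, against 508, 86.9, 534 and 469 CPM in WT libraries; apart from WT replicate 2 the WT values were higher, and the log2 fold change was -1.42 ± 0.74 (adjusted p = 0.515). Cyp51, lanosterol demethylase, overlapped between 95.0 and 273 CPM in SCAP cKO libraries and 84.1 and 462 CPM in WT libraries.

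**Figure D2:**
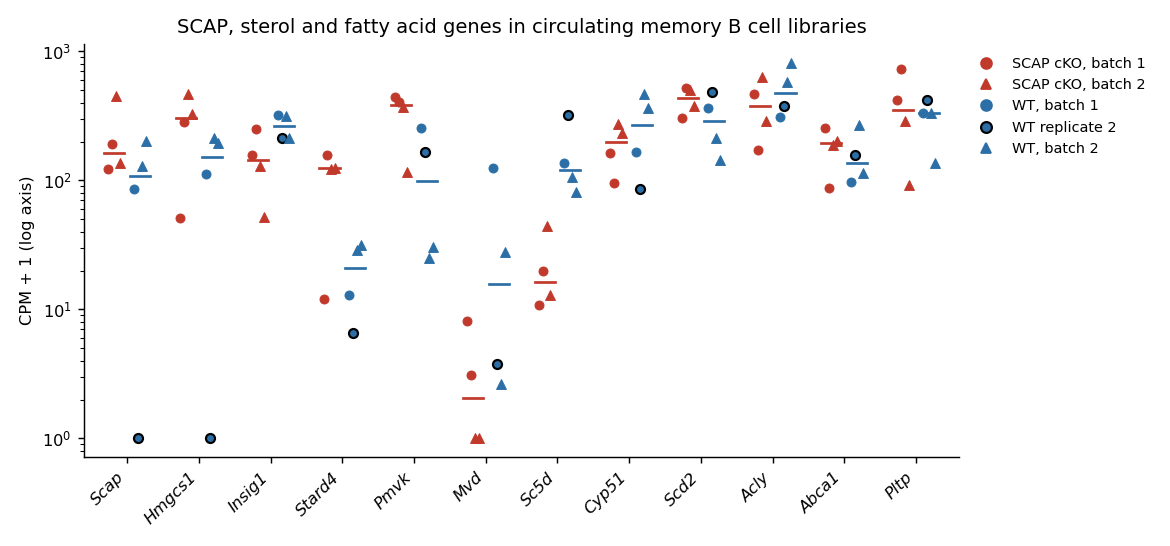
CPM plus 1 (log axis) of 12 genes of SCAP, sterol, fatty acid and sterol efflux biology in each circulating library, SCAP cKO in red left of WT in blue; bars are group medians, circles batch 1, triangles batch 2, and a value at 1 is a count of 0. Sc5d is the gene here whose 4 SCAP cKO libraries (9.86 to 43.5 CPM) all lie below the 4 WT libraries (80.9 to 320 CPM).

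Genes that control SREBP or take up sterol gave no common direction either: 6 of 9 tested were higher and 3 lower, with a median log2 fold change of 0.29; with library totals alone 4 were higher and 5 lower, with a median of -0.09. Insig1 was at 157, 247, 128 and 51.1 CPM in SCAP cKO libraries, against 320, 210, 317 and 211 CPM in WT libraries. Only SCAP cKO replicate 2 reached the WT range, and the log2 fold change was -0.60 ± 0.81 (adjusted p = 0.849 in edgeR). It was below 0 in each of the 23 alternative settings, from -1.58 to -0.19, and in lung cells it was -1.2 in CCR6+CD69+ and -1.42 in CCR6-CD69-. Stard4, a cytosolic sterol carrier, was at 11.0, 156, 122 and 123 CPM in SCAP cKO libraries, against 11.9, 5.61, 28.0 and 30.7 CPM in WT libraries. In 3 of 4 SCAP cKO libraries it was above every WT library, and the log2 fold change was 2.59 ± 1.18 (adjusted p = 0.439). In lung cells its fold change was -0.44 in CCR6+CD69+ and -2.29 in CCR6-CD69-; the difference between circulating and CCR6-CD69- cells was 4.89 ± 1.65 (adjusted p = 0.393).

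Fatty acid synthesis and desaturation genes were split as well, 7 higher and 9 lower of 16 tested, with a median of -0.09, with 0.38 in batch 1 and -0.62 in batch 2. Scd2, a stearoyl-CoA desaturase, was at 303, 519, 497 and 376 CPM in SCAP cKO libraries, against 362, 482, 212 and 143 CPM in WT libraries. The groups overlapped in batch 1 and not in batch 2, and the log2 fold change was 0.84 ± 0.63 (adjusted p = 0.672). Hacd3, a dehydratase of very long chain fatty acid elongation, was at 20.3, 21.9, 0 and 0 CPM in SCAP cKO libraries, against 461, 238, 26.8 and 29.0 CPM in WT libraries. All SCAP cKO values were below all WT values in plain CPM but not after TMM scaling, and the log2 fold change was -3.87 ± 1.18 (adjusted p = 0.417). Hsd17b12, the ketoacyl reductase of the same elongation cycle, pointed the other way at 570, 25.1, 31.7 and 63.6 CPM in SCAP cKO libraries, against 12.8, 56.1, 22.3 and 11.3 CPM in WT libraries, with a log2 fold change of 2.89 ± 1.09 (adjusted p = 0.419). SCAP cKO replicate 1 held most of the Hsd17b12 counts, and without it the log2 fold change was 1.29; without WT replicate 2 the groups stood apart. Acly, which makes cytosolic acetyl-CoA, was at 170 to 635 CPM in SCAP cKO libraries and 309 to 814 CPM in WT libraries.

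Of the genes driven by LXR, the sterol-sensing receptor of efflux, 3 were tested. Abca1, the cholesterol efflux pump, was at 253, 85.6, 187 and 201 CPM in SCAP cKO libraries, against 95.9, 157, 266 and 113 CPM in WT libraries. The groups overlapped, and the log2 fold change was 0.73 ± 0.55 (adjusted p = 0.674 in edgeR). Pltp, a phospholipid transfer protein, was at 91.7 to 723 CPM in SCAP cKO libraries and 136 to 415 CPM in WT libraries. Fatty acid oxidation genes were 7 higher and 7 lower of 14, with a median of 0.24, but -0.42 and -0.27 in batch 1 and batch 2 fitted separately. Ppard, a nuclear receptor that drives fatty acid oxidation, was at 458, 10.4, 142 and 169 CPM in SCAP cKO libraries, against 3.54, 5.61, 31.6 and 26.8 CPM in WT libraries. Within each batch both SCAP cKO libraries were above both WT libraries, and the log2 fold change was 4.22 ± 1.29 (adjusted p = 0.417), 6.08 in batch 1 alone and 2.38 in batch 2 alone. Acadvl, the very long chain acyl-CoA dehydrogenase, was at 10.4, 13.6, 0 and 39.2 CPM in SCAP cKO libraries, against 97.7, 39.2, 66.1 and 84.4 CPM in WT libraries; the nearest values of the groups, SCAP cKO replicate 4 and WT replicate 2, were both 39.2 CPM to this precision.

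The genes with the smallest p among those higher in SCAP cKO were mostly genes nearly silent in WT circulating cells. Of the 12, 6 had every SCAP cKO library above every WT library on both scales: Enpp5, Shb, Nrp2, Sgcb, Trim5 and Cd151. Since these genes were picked for the contrast, that count says nothing beyond the values. The detection limit of WT replicate 2, 8.41 CPM, was above the lowest SCAP cKO values of Enpp5, Shb, Sgcb and Cd151. That library therefore cannot show a separation from those values. Nrp2, neuropilin 2, a co-receptor for semaphorins and VEGF, was at 140, 20.9, 78.2 and 66.9 CPM in SCAP cKO libraries, against 8.84, 0, 1.62 and 0 CPM in WT libraries. Every SCAP cKO library was above the highest WT library, and the log2 fold change was 5.04 ± 1.32 (adjusted p = 0.417 in edgeR). Batch 1 by itself gave 4.04, batch 2 gave 6.33, and leaving out WT replicate 2 gave 4.74.

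Shb, an adaptor protein with an SH2 domain, was at 207, 7.31, 45.7 and 15.3 CPM in SCAP cKO libraries, against 0.884, 0, 0 and 0 CPM in WT libraries. The WT libraries held 2 counts in all against 479 in SCAP cKO, a ratio of 284 with an exact 95% counting interval of 78.3 to 2354. Enpp5, an ectonucleotide pyrophosphatase family member, was at 1.10, 154, 67.1 and 128 CPM in SCAP cKO libraries, against 0.442, 0, 0 and 0 CPM in WT libraries. SCAP cKO replicate 1, with 1.10 CPM, was itself below its own detection limit of 1.64 CPM, so the separation of Enpp5 rests on the other 3. Sgcb, beta-sarcoglycan, was at 5.48, 239, 195 and 114 CPM in SCAP cKO libraries, against 5.30, 0, 0 and 0 CPM in WT libraries. Here the replicates numbered 1 were nearly equal in the genotypes. Cd151, a tetraspanin that binds laminin-receptor integrins, was at 3.29, 180, 58.3 and 36.8 CPM in SCAP cKO libraries, against 1.77, 2.80, 0 and 0 CPM in WT libraries.

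Trim5, a restriction factor family gene with near-identical mouse copies that read counting could split, was at 21.4, 29.2, 81.1 and 108 CPM in SCAP cKO libraries, against 10.6, 0, 0.405 and 0 CPM in WT libraries. Its log2 fold change was 4.39 ± 1.2 (adjusted p = 0.417). WT replicate 1 held most of the WT counts, and without that library the value was 8.15 with an adjusted p of 0.0207, the 1 gene past the threshold when a library was left out. Bcl2a1b, an anti-apoptotic BCL2 relative, also with near-identical copies, was at 272, 40.7, 13.3 and 66.9 CPM in SCAP cKO libraries, against 10.6, 0, 0 and 7.79 CPM in WT libraries. The groups stood apart in plain CPM and overlapped after TMM scaling, and the log2 fold change was 4.31 ± 1.14 (adjusted p = 0.417). Eif1, the initiation factor that scans for start codons, was at 1032, 1141, 64.9 and 63.1 CPM in SCAP cKO libraries, against 235, 398, 25.5 and 0.866 CPM in WT libraries. Its values differed more between batches than between genotypes, yet within each batch both SCAP cKO libraries were higher, and the log2 fold change was 2.40 ± 0.67 (adjusted p = 0.417).

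In the other 4 genes a few libraries carried the difference. Cyb5r1, a cytochrome b5 reductase, was at 495, 11.5, 0 and 0 CPM in SCAP cKO libraries, against 6.19, 2.80, 0 and 0 CPM in WT libraries, and without the first SCAP cKO library the log2 fold change of 5.94 was 1.05. Hint2, a mitochondrial nucleotide hydrolase, was at 1.64, 3.13, 87.0 and 0 CPM in SCAP cKO libraries and 0 in every WT library, at least 49.1-fold higher over the group when WT is set to 3 counts. Nearly all of it was in SCAP cKO replicate 3. Tstd3, of the thiosulfate sulfurtransferase family, was at 67.4, 13.6, 187 and 0 CPM in SCAP cKO libraries, against 0.884, 0, 0 and 0 CPM in WT libraries, a ratio of 232 (counting interval 63.7 to 1918). A930015D03Rik, a long non-coding RNA row, was at 233, 412, 0.737 and 0 CPM in SCAP cKO libraries, against 3.98, 0, 0 and 0 CPM in WT libraries, so the genotypes differed in batch 1 and not visibly in batch 2.

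**Figure D3:**
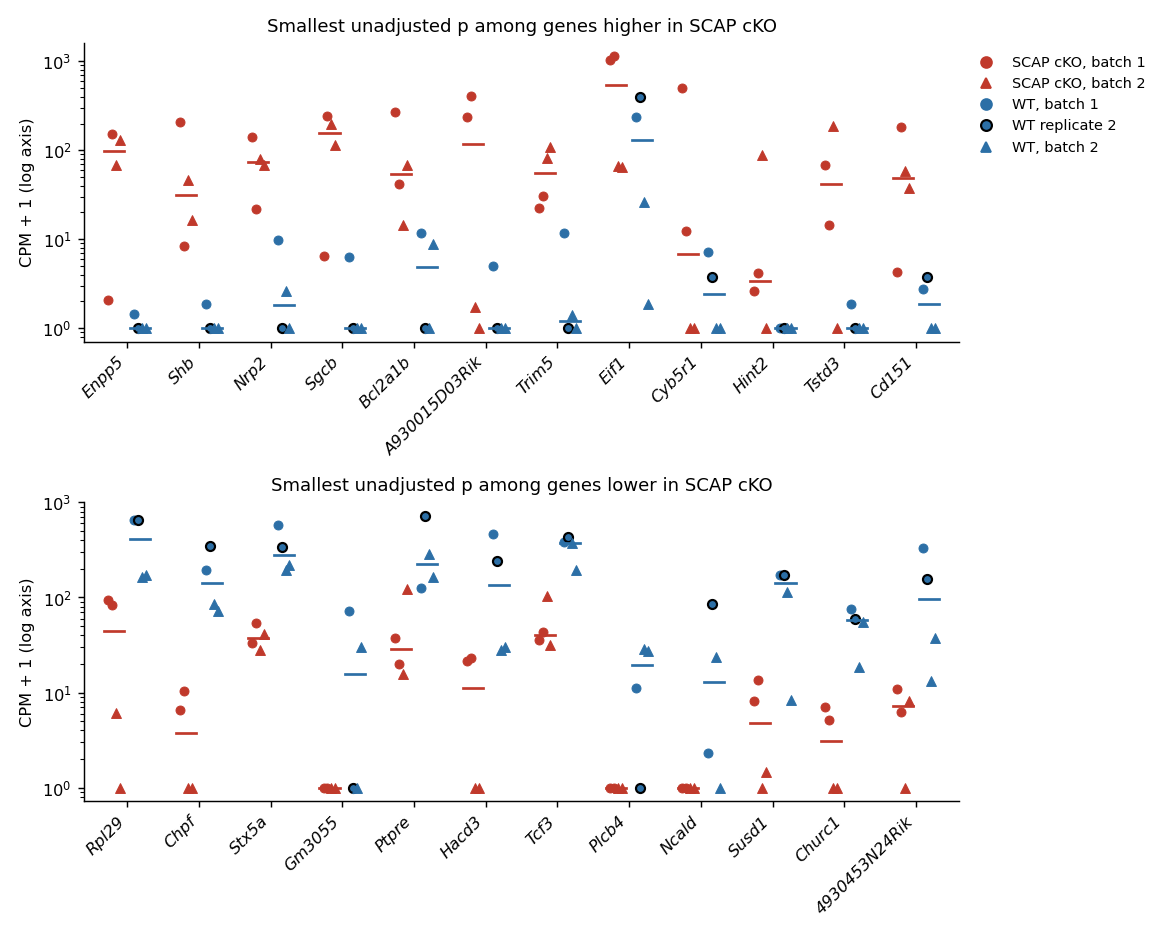
CPM plus 1 (log axis) in each circulating library for the 12 genes of smallest unadjusted p that were higher (top) and the 12 that were lower (bottom) in SCAP cKO, SCAP cKO in red left of WT in blue, bars at group medians; a value at 1 is a count of 0. Stx5a, Tcf3 and Ptpre show every SCAP cKO library below every WT library with counts in all 8, while Plcb4, Ncald and Gm3055 are at 0 in SCAP cKO and partly in WT.

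Among genes lower in SCAP cKO, Stx5a and Tcf3 had counts in all 8 libraries and groups that did not overlap on either scale. Stx5a, syntaxin 5, the Golgi membrane fusion protein that works in the transport route from endoplasmic reticulum to Golgi, was at 32.3, 53.3, 27.3 and 40.6 CPM in SCAP cKO libraries, against 584, 336, 195 and 216 CPM in WT libraries. Its lowest WT library was over its highest SCAP cKO library in both batches, and the log2 fold change was -2.81 ± 0.83 (adjusted p = 0.417 in edgeR). Batch 1 by itself gave -3.24 and batch 2 gave -2.62. Tcf3, which encodes the E2A transcription factors of B cell identity, was at 35.1, 42.8, 102 and 30.6 CPM in SCAP cKO libraries, against 380, 432, 374 and 193 CPM in WT libraries. The gap lay between 102 CPM in SCAP cKO replicate 3 and 193 CPM in WT replicate 4, and the log2 fold change was -2.52 ± 0.77 (adjusted p = 0.417). In lung cells the Tcf3 fold change was -0.04 in CCR6+CD69+ and 0.53 in CCR6-CD69-.

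Rpl29, a protein of the large ribosomal subunit, was lower in SCAP cKO in all 3 populations. In circulating cells it was at 92.1, 82.5, 5.16 and 0 CPM in SCAP cKO libraries, against 648, 653, 165 and 170 CPM in WT libraries. In lung CCR6+CD69+ cells its median was 26.5 CPM (0.480 to 62.4) in SCAP cKO libraries and 223 CPM (179 to 666) in WT libraries, and in lung CCR6-CD69- cells 18.8 CPM (0 to 75.2) in SCAP cKO libraries and 173 CPM (151 to 323) in WT libraries. The groups did not overlap in plain CPM in any population, and overlapped after TMM scaling in circulating cells. The log2 fold change was -3.45 ± 0.97 in circulating cells (adjusted p = 0.417), beside -4.04 and -3.83 in the lung populations. Of the 56 tested cytosolic ribosomal protein genes, Rpl29 included, 42 were higher and 14 lower in SCAP cKO circulating cells, with a median log2 fold change of 0.26; with library totals alone 27 were higher and 29 lower. Rpl29 and Scap lie on chromosome 9 with 122 protein-coding genes between them in RefSeq GRCm38. Multicopy pseudogenes make ribosomal protein counts depend on how reads were assigned, which is not given in the sources used here. The list named genes near Scap holds Rpl29 in spite of the 122 genes between them. Of its 4 tested genes 3 had lower fitted levels: Rpl29, Klhl18 (log2 fold change -2.25) and Setd2 (-0.63). Kif9, the higher one, had at most 3.13 CPM in SCAP cKO libraries and 1.73 CPM in WT libraries. Klhl18 was at 27.9, 18.8, 54.6 and 36.3 CPM in SCAP cKO libraries, against 54.8, 661, 182 and 49.3 CPM in WT libraries, and Setd2, a histone H3 lysine methyltransferase, at 138 to 305 CPM in SCAP cKO libraries and 285 to 431 CPM in WT libraries.

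Chpf, a chondroitin polymerizing factor, was at 5.48, 9.40, 0 and 0 CPM in SCAP cKO libraries, against 195, 345, 83.5 and 71.0 CPM in WT libraries. The groups were far apart in both batches, and the log2 fold change was -5.31 ± 1.5 (adjusted p = 0.417). In lung it was 0.49 in CCR6+CD69+ and -6.15 in CCR6-CD69- cells. Ptpre, a receptor-type tyrosine phosphatase, was at 36.7, 18.8, 14.7 and 121 CPM in SCAP cKO libraries, against 126, 720, 285 and 165 CPM in WT libraries. The groups of Ptpre did not overlap on either scale. In plain CPM its closest libraries were SCAP cKO replicate 4 and WT replicate 1. The log2 fold change was -2.58 ± 0.78 (adjusted p = 0.417), or -1.73 without WT replicate 2. Churc1 was at 6.03, 4.18, 0 and 0 CPM in SCAP cKO libraries, against 73.8, 58.9, 17.4 and 54.5 CPM in WT libraries, apart on both scales. Susd1, with sushi domains, was at 7.12, 12.5, 0 and 0.478 CPM in SCAP cKO libraries, against 171, 171, 112 and 7.36 CPM in WT libraries, overlapping through WT replicate 4. The row 4930453N24Rik was at 9.86, 5.22, 0 and 7.17 CPM in SCAP cKO libraries, against 330, 154, 12.2 and 36.8 CPM in WT libraries, apart in plain CPM.

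The remaining 3 lower genes had no count in any SCAP cKO library. Plcb4, a phospholipase C, was at 10.2, 0, 27.6 and 26.4 CPM in WT libraries, at least 42.7-fold lower in SCAP cKO when that group is set to 3 counts. Ncald, neurocalcin, was at 1.33, 84.1, 22.7 and 0 CPM in WT libraries, at least 25-fold lower, and Gm3055 at 71.6, 0, 0 and 29.4 CPM, at least 64.6-fold lower. Each was also at 0 in 1 or 2 WT libraries.

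Genes of the NF-kB response and survival, a pathway that CD40 and the B cell receptor feed, had mostly higher fitted levels in SCAP cKO circulating cells. Of 14 tested, 13 had a higher fitted level, with a median log2 fold change of 1.65 beside 0.16 over all genes; 5 were higher at an unadjusted p under 0.05 beside 5.84% of all genes, and 0 passed the adjusted threshold in edgeR, while DESeq2 called 3, Bcl2a1b, Traf1 and Nfkbie. DESeq2 called 226 of all 6779 genes. With only the 8 circulating libraries in the edgeR fit, 3 of 11 tested members were higher at an unadjusted p under 0.05. With WT replicate 2 left out as well, 1 of 11 was. The list was written with earlier results of these data known and has no test of its own. Nfkbie, which encodes the inhibitor IkB epsilon, was at 854, 352, 271 and 449 CPM in SCAP cKO libraries, against 95.5, 123, 191 and 228 CPM in WT libraries. Every SCAP cKO library was above every WT library on both scales, and the log2 fold change was 1.96 ± 0.64 (adjusted p = 0.419). Traf1, an adaptor of TNF receptors and an NF-kB target, was at 301, 596, 41.3 and 142 CPM in SCAP cKO libraries, against 70.3, 81.3, 55.1 and 45.4 CPM in WT libraries. SCAP cKO replicate 3 was the lowest of all 8, and the log2 fold change was 2.29 ± 0.72 (adjusted p = 0.417).

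Rela, the p65 subunit, was at 520, 54.3, 240 and 365 CPM in SCAP cKO libraries, against 116, 2.80, 159 and 183 CPM in WT libraries, with a log2 fold change of 1.74 ± 0.72 (adjusted p = 0.426). Bcl2, the anti-apoptotic founder of its family, was at 980, 901, 315 and 117 CPM in SCAP cKO libraries, against 216, 2.80, 395 and 251 CPM in WT libraries. Its genotypes were far apart in batch 1 and overlapped in batch 2, with a log2 fold change of 2.07 ± 0.79 (adjusted p = 0.419), 3.12 in batch 1 alone and -0.61 in batch 2 alone. The subunit genes Nfkb1 (386 to 775 CPM in SCAP cKO, 266 to 705 CPM in WT) and Rel (235 to 1968 CPM in SCAP cKO, 497 to 1341 CPM in WT) overlapped widely, as did Tnfaip3, the A20 brake on NF-kB (746 to 2122 CPM in SCAP cKO, 837 to 1582 CPM in WT). Bcl2l1, the BCL-XL gene, was the 1 member with a lower fitted level, and its log2 fold change of -3.90 was large beside the highest of the list, 4.31. With relative log expression factors, DESeq2, no filter or library totals alone, 11 members were higher and 3 lower. In each of these settings 1 lower member had an unadjusted p under 0.05.

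The median of the NF-kB list was 1.75 in batch 1 alone, with 12 of 14 genes higher, and 0.11 in batch 2 alone, with 7 higher and 6 lower. Without WT replicate 2 it was 1.44 with 12 of 14 higher, and with only the 7 circulating libraries other than that one in the fit it was 0.43 with 8 of 11 higher. It was 0.95 without SCAP cKO replicate 2 and 1.26 with library totals alone. The lung medians were 0.25 in CCR6+CD69+ and 0.23 in CCR6-CD69- cells. The median of conventional dendritic cell markers was 1.11 over both batches, 0.17 in batch 2 alone and 0.24 with the 7 circulating libraries. Such a fall was not particular to them. From batch 1 to batch 2, plasmacytoid markers went from 0.89 to -0.26 and B cell receptor signalling genes from 0.46 to -0.16. The median of all genes went from 0.325 to -0.08, while the cholesterol synthesis and interferon medians rose. The part of dendritic cells in the NF-kB values was not tested.

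**Figure D4:**
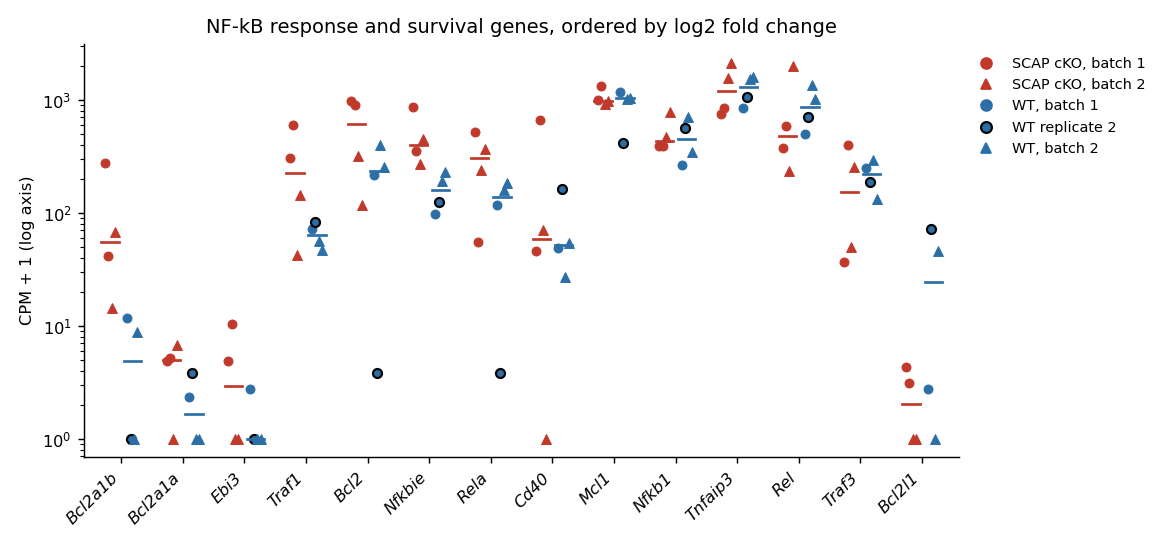
CPM plus 1 (log axis) of the 14 tested NF-kB response and survival genes in each circulating library, ordered from the highest to the lowest log2 fold change; SCAP cKO in red left of WT in blue, circles batch 1, triangles batch 2, bars at group medians. Nfkbie is above every WT library in all 4 SCAP cKO libraries (271 to 854 CPM against 95.5 to 228 CPM), while Bcl2 separates in batch 1 (circles) only.

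Memory and recirculation genes were close to even. Of 11 tested memory B cell genes 4 were higher and 7 lower, with a median of -0.18 and 0 at an unadjusted p under 0.05 in edgeR. Of 12 recirculation and egress genes 5 were higher and 7 lower, with a median of -0.26. Ccr7, the receptor that guides lymphocytes to lymph nodes, was at 380, 261, 307 and 402 CPM in SCAP cKO libraries, against 1366, 1096, 613 and 386 CPM in WT libraries. WT replicate 4 alone lay within the SCAP cKO range, and the log2 fold change was -1.02 ± 0.53 (adjusted p = 0.514). Klf3, a transcriptional repressor of the Krüppel-like family, was at 12.1, 25.1, 36.1 and 145 CPM in SCAP cKO libraries, against 121, 322, 193 and 407 CPM in WT libraries, apart after TMM scaling only, with a log2 fold change of -2.20 ± 1.04 (adjusted p = 0.455). Tissue residency genes were 4 higher and 2 lower of 6, and Cd69, used to sort the lung cells, was at 388 to 1328 CPM in SCAP cKO libraries and 39.2 to 831 CPM in WT libraries.

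Of 7 tested class II presentation genes 5 were higher and 2 lower, with a median of 0.13 (3 higher and 4 lower with library totals alone), and a pair of them with opposite signs had unadjusted p under 0.05. H2-Aa, a class II alpha chain, was at 3936, 5638, 2333 and 1859 CPM in SCAP cKO libraries, against 3758, 2794, 1822 and 1253 CPM in WT libraries. Within each batch both SCAP cKO libraries were higher, and the log2 fold change was 0.78 ± 0.31 (adjusted p = 0.419 in edgeR). H2-DMb2, a chain of the peptide-loading catalyst H2-DM, was at 262, 281, 310 and 76.0 CPM in SCAP cKO libraries, against 643, 608, 587 and 666 CPM in WT libraries. All 4 SCAP cKO libraries were below all 4 WT libraries on both scales, with a log2 fold change of -1.13 ± 0.45 (adjusted p = 0.419). In lung cells the H2-DMb2 fold change was 0.25 in CCR6+CD69+ and -0.45 in CCR6-CD69-. Cd74, the invariant chain, was at 7835 to 9587 CPM in SCAP cKO libraries and 7646 to 13196 CPM in WT libraries. H2-DMb2 has a near-identical neighbour, so its counts depend on how shared reads were assigned.

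B cell identity genes were 6 higher and 5 lower of 11, with a median of 0.05; with library totals alone 4 were higher and 7 lower, and without WT replicate 1 10 were higher and 1 lower. Tnfrsf13c, the BAFF receptor that keeps mature B cells alive, was at 245, 364, 330 and 293 CPM in SCAP cKO libraries, against 39.8, 14.0, 440 and 227 CPM in WT libraries; the WT libraries of batch 1 were the low ones, and the log2 fold change was 1.53 ± 0.69 (adjusted p = 0.439). Cr2, complement receptor 2, was at 13.2, 19.8, 0 and 0 CPM in SCAP cKO libraries, against 230, 14.0, 0 and 15.1 CPM in WT libraries. Pax5, the B lineage regulator, was at 499 to 2046 CPM in SCAP cKO libraries and 429 to 1427 CPM in WT libraries. B cell receptor signalling genes were 13 higher and 3 lower of 16 with a median of 0.27 and 0 at an unadjusted p under 0.05 in edgeR; the split was 5 higher and 11 lower with library totals alone, and 4 higher and 12 lower in batch 2 alone.

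Plasma cell genes were 4 higher and 3 lower of 7. Jchain, which links polymeric antibodies, was at 936, 403, 317 and 729 CPM in SCAP cKO libraries, against 1186, 824, 1983 and 2597 CPM in WT libraries. The groups overlapped through SCAP cKO replicate 1 and WT replicate 2 and stood apart without WT replicate 2, with a log2 fold change of -1.0 ± 0.57 (adjusted p = 0.573). Batch 1 by itself gave -0.33 and batch 2 gave -2.16, beside -0.66 and -1.79 in lung CCR6+CD69+ and CCR6-CD69- cells. Germinal centre genes as a list were 5 higher and 4 lower of 9.

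Interferon response genes had lower fitted levels for 11 of 17, with a median of -0.68, and Irf7 was among the 6 higher. The median was nearer to 0 within each batch, -0.19 with 8 higher and 9 lower in batch 1, and -0.01 with 6 higher and 9 lower in batch 2. Irf7, the regulator of interferon genes, was at 1206, 632, 949 and 560 CPM in SCAP cKO libraries, against 409, 81.3, 389 and 225 CPM in WT libraries. All SCAP cKO libraries were above all WT libraries in plain CPM but not after TMM scaling, with a log2 fold change of 1.72 ± 0.89 (adjusted p = 0.523 in edgeR). Zbp1, a sensor of Z-form nucleic acid, was at 28.5, 14.6, 0 and 0 CPM in SCAP cKO libraries, against 116, 8.41, 142 and 104 CPM in WT libraries. Plasmacytoid dendritic cells carry much Irf7, and their marker list took 0.406% to 0.608% of counts in SCAP cKO and 0.363% to 0.499% in WT libraries; its part in the Irf7 values was not tested.

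**Figure D5:**
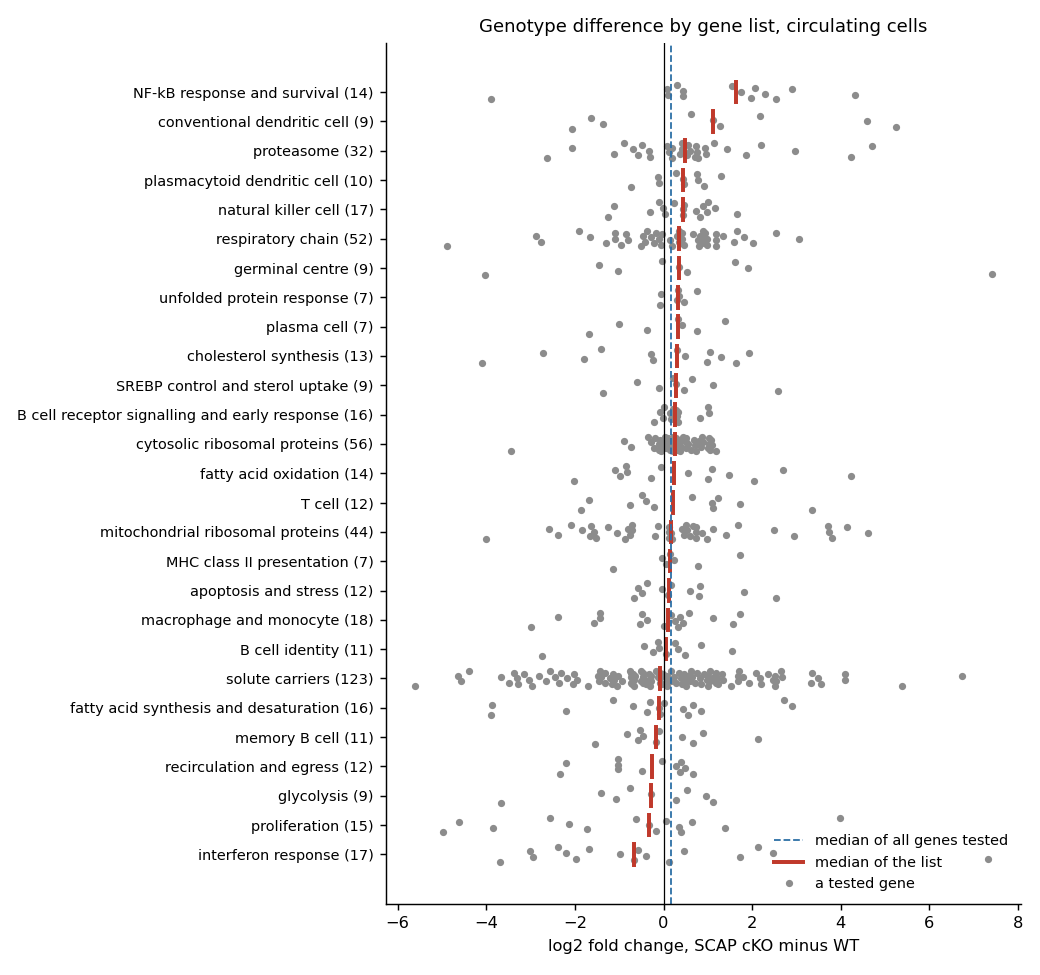
Log2 fold change (SCAP cKO minus WT, circulating cells) of each tested gene (grey) in the gene lists with at least 7 tested genes, number tested in parentheses, with the list median in red and the median of all 6779 genes (0.16) as a dashed line. Fitted values of genes with no count in a group depend on the prior count; the NF-kB list has a median of 1.65 over both batches and 0.11 in batch 2 alone, and the interferon list -0.68 over both, -0.19 in batch 1 and -0.01 in batch 2.

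The last question was whether SCAP loss had another effect in circulating than in lung memory B cells. In edgeR's test of the difference of the genotype effects, 0 of 6779 genes (0%) passed against lung CCR6+CD69+ and 0 of 6779 (0%) against lung CCR6-CD69-; 367 and 575 genes had an unadjusted p under 0.05, and DESeq2 called 30 and 102. Limma voom called 0 in both. Shb had a difference of 12.24 ± 2.76 from lung CCR6-CD69- (adjusted p = 0.212), its lung levels there having a median of 0.211 CPM in SCAP cKO libraries and 13.4 CPM in WT libraries. The detection limit of SCAP cKO replicate 4 in that population, 23.25 CPM, was above this WT median, so that library cannot show a lower level. Ptpre had a difference of -4.61 ± 1.09 from the same population (adjusted p = 0.212), where it spanned 68.6 to 3224 CPM in SCAP cKO lung libraries and 55.7 to 348 CPM in WT lung libraries. With no filter on low counts edgeR called both for this difference, Ptpre at -4.68 (adjusted p of 0.00945) and Shb at 12.1 (adjusted p of 0.0423). Nrp2 had a difference of 6.00 ± 1.70 from lung CCR6+CD69+ (adjusted p = 0.540), where it had a median of 42.5 CPM in SCAP cKO libraries and 78.8 CPM in WT libraries. Bcl2a1b there had a median of 139 CPM in SCAP cKO libraries and 151 CPM in WT libraries, against a WT circulating range of 0 to 10.6 CPM, and Trim5 had 80.3 CPM in SCAP cKO and 89.7 CPM in WT libraries. These differences use the same circulating libraries as the values above and are no separate evidence. For Rpl29 the difference was 0.59 ± 1.22 from lung CCR6+CD69+ and 0.38 ± 1.23 from lung CCR6-CD69-, and neither interval is narrow enough to say that the effect was alike.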

How the data were processed

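PolyA RNA of sorted cells was extracted with a Zymo microprep kit and made into libraries with an xGen broad-range kit adapted to few cells, per the labels' protocols. Gene-level raw counts were used as the authors deposited them, as whole numbers over 18470 genes. FastQC, STAR, Salmon and the mm39 build appear, without versions, in the submitters' processing notes; which tool made the counts is not given in the sources used here. Total counts are over the rows analysed here.

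The genotype contrast was fitted with edgeR 4.0.16 under R 4.3.3, using TMM factors, the filterByExpr filter (6779 genes left) and robust quasi-likelihood F-tests on all 24 libraries with terms for group and batch. The spread is shared by the 6 groups. Benjamini-Hochberg adjustment ran over all 6779 genes, with 0.05 as the threshold; ± is the SE. CPM were computed from library totals. Where a group had no counts the fold is a bound against 3 counts over the group, and with 1 to 3 counts a ratio of pooled CPM with an exact 95% interval, covering counting error only. The scripts were tested on simulated data. In counts simulated for this contrast, edgeR called 3% of the genes changed 4-fold and 21% of those changed 16-fold. Most changes of these sizes were thus missed, and a gene that did not pass cannot be taken as unchanged.

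The 8 libraries, the 35 gene lists (988 genes, 770 with a row, 589 tested) and the rules were chosen with earlier results of these data known. Named genes are Scap, 8 sterol genes, the 12 higher and 12 lower genes of smallest p with a mean of at least 5 CPM in the higher group, and the 4 tested members of smallest p of each list; other members appear as examples, and some genes are not reported here. Lists were described by counts and medians, with no test. Alternatives were DESeq2 1.42.0, limma 3.58.1 voom, relative log expression factors, other filters, only the 8 circulating libraries, each batch alone, no batch term, a replicate block, a minimum log2 fold change of 1, immunoglobulin genes left out and each circulating library left out; library totals alone, and the fit without the 2 smallest of the 24 libraries, were added after seeing the data. Promoters and the gene order on chromosome 9 were taken from RefSeq GRCm38, not the mm39 build of the counts, and used for names, motifs and neighbourhood only.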

Additional observations from a re-analysis of the deposited data

Results flagged for a closer look

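Within each genotype's 4 libraries, 58 genes given library by library, the total counts and the number of genes detected were checked for a highest or lowest library whose gap to the nearest other exceeded Dixon's critical share of the group's range. This was met in 12 of 116 groups. Chance flags about 1 in 20 groups of unselected values that follow a normal distribution, which CPM need not do. Many of these genes were also picked for being near silent in 1 genotype, and with the other 3 libraries at 0 any count meets the rule. The rates therefore cannot be compared. In WT circulating cells replicate 1 was the highest library for Enpp5 (0.442 CPM), Shb (0.884 CPM), Tstd3 (0.884 CPM), A930015D03Rik (3.98 CPM), Sgcb (5.30 CPM) and Trim5 (10.6 CPM), with the other 3 WT libraries at or near 0, and also for Cr2 (230 CPM, the others 0 to 15.1 CPM). A count of 3 in that library corresponds to 1.33 CPM, so the values of Enpp5, Shb and Tstd3 lie under its detection limit. In SCAP cKO circulating cells replicate 1 was far above the others for Cyb5r1 (495 CPM) and Hsd17b12 (570 CPM), and replicate 3 for Hint2 (87.0 CPM). WT replicate 2 was the lowest WT library for Lbr (86.9 CPM, the others 469 to 534 CPM) and had the lowest total, 356782 counts, beside 2262715 to 2466421 in the other WT libraries.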

How the results depend on the processing

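The count of genes past the threshold between SCAP cKO and WT circulating cells was 0 in edgeR and stayed 0 with limma voom, relative log expression factors, library totals alone, both other filters, only the 8 circulating libraries with or without WT replicate 2, no batch term and batch 2 alone. DESeq2 called 226 genes, and batch 1 alone called 2: Lime1 (log2 fold change 8.31) and Prkcd (3.72), both with an adjusted p of 0.0241. Leaving out each circulating library in turn gave 0 to 1 genes, the 1 being Trim5 without WT replicate 1. For the difference from lung CCR6+CD69+ DESeq2 called 30 genes; for the difference from lung CCR6-CD69- it called 102, and edgeR without a filter 10. Of 35 gene list medians 26 were above 0; 11 were with batch 2 alone, 13 with library totals alone, and 18 to 27 when a library was left out. The cause of these shifts was not tested. With the replicate number as a block 0 genes passed in each of the 3 comparisons, 502 had an unadjusted p under 0.05 between the circulating genotypes, and 25 list medians were above 0. Deviations from the group mean correlated at 0.0574 to 0.159 between libraries with the same number, not all over 0.1. Between libraries with other numbers they reached 0.134. As deviations from the group and batch mean the same-number correlations were 0.0246 and -0.0217. The numbers were not taken as pairs. Depth limits the low genes most: a gene at 8.41 CPM in WT replicate 2 rests on 3 counts.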

Other observations

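Some gene groups belong to none of the comparisons above; all values are for circulating cells, and no gene passed the adjusted threshold in edgeR. Proteasome genes were higher in SCAP cKO for 23 of 32 tested, with a median log2 fold change of 0.48 beside 0.16 over all genes. The median was 0.38 in batch 1, 0.19 in batch 2, 0.28 with library totals alone, 0.27 with limma voom, 0.23 with the 8 circulating libraries alone and 0.22 without SCAP cKO replicate 4. Psmb4, a beta-ring subunit, was at 174 to 395 CPM in SCAP cKO libraries and 117 to 143 CPM in WT libraries, apart in plain CPM only. Psma6, an alpha-ring subunit, ran the other way, at 20.8, 29.2, 0 and 0 CPM in SCAP cKO libraries, against 61.9, 107, 80.7 and 72.7 CPM in WT libraries. Nuclear-encoded respiratory chain genes were higher for 31 of 52, with a median of 0.35, and 0.07 with library totals alone. Uqcrh, a hinge protein of complex III, was at 1071, 873, 30.2 and 205 CPM in SCAP cKO libraries, against 259, 196, 135 and 17.7 CPM in WT libraries, overlapping in batch 2. Mitochondrial ribosomal protein genes were higher for 26 of 44, with a median of 0.18, but the batches had opposite signs: 1.34 with 30 higher and 14 lower in batch 1, and -1.11 with 13 higher and 29 lower in batch 2. The median was -0.24 without SCAP cKO replicate 1, -0.28 without SCAP cKO replicate 2 and -0.06 with library totals alone.

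Glycolysis genes were higher for 4 and lower for 5 of 9, with a median of -0.27 (0.15 in batch 1, -0.29 in batch 2). Eno1, enolase, was at 215 to 385 CPM in SCAP cKO libraries and 429 to 696 CPM in WT libraries, and Aldoa, aldolase, at 58.1 to 166 CPM in SCAP cKO libraries and 184 to 317 CPM in WT libraries; both were apart in plain CPM only. Pkm, pyruvate kinase, was at 875 to 1866 CPM in SCAP cKO libraries and 362 to 957 CPM in WT libraries. Solute carriers were higher for 58 and lower for 65 of 123, with a median of -0.07 (0.36 in batch 1, -0.18 in batch 2). Among stress genes, Gadd45b, a stress sensor induced by NF-kB, was at 75.1, 553, 160 and 303 CPM in SCAP cKO libraries, against 98.1, 75.7, 43.4 and 132 CPM in WT libraries, with a log2 fold change of 1.82 ± 0.75 (adjusted p = 0.419 in edgeR). Bcl2l11, the pro-apoptotic BIM gene, was at 781 to 1756 CPM in SCAP cKO libraries and 785 to 1031 CPM in WT libraries.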
